A study of Mus musculus with 44 samples.

Results

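Immediate early genes are genes whose transcription starts within minutes of a stimulus without any new protein being made. 10 of them were followed here among the 54446 genes of the count table: the AP-1 subunits Fos, Fosb and Junb, the zinc finger factors Egr1 and Egr2, the neuronal factor Npas4, the orphan nuclear receptor Nr4a1, the synaptic protein gene Arc, the phosphatase gene Dusp1 and the nuclear protein gene Ier2. They were taken from a list of symbols, matched to the Ensembl identifiers of the table through their mouse GRCm38 annotation, and all 10 were found. The rule for that choice used no measured value, but the members were chosen with earlier results of these data known. Ribosome-depleted total RNA from whole brain and liver of C57BL/6 mice was sequenced in 44 libraries, to ask how a ketogenic diet (KD, nearly all calories from fat) and aging change expression relative to a carbohydrate-rich control diet (CD). The one-week KD cohort consisted of 7 brains of 12-month mice fed the KD for one week and 5 brains of 12-month mice fed the CD. The one-year cohort consisted of 8 KD and 8 CD brains and 8 KD and 8 CD livers of 26-month mice. These KD mice had alternated weekly between the KD and the CD since 12 months of age, and tissue was taken at night in a week when they ate the CD, so that every 26-month animal was on the CD when it was collected. The labels give no genotype and no treatment other than the diet for any group. Libraries are named below by the number in their title.

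In neurons, these genes are switched on by calcium entry and by growth factor receptors, which act through kinases on the transcription factors CREB and SRF, already bound near the start sites. Their RNA is short-lived, so that its level follows the activity of the preceding hour, and Fos, Arc and Egr1 are widely used to mark recently active neurons. In liver the same genes respond to growth factors, cytokines, stress hormones and injury. AP-1 dimers, EGR proteins, Npas4 and Nr4a1 go on to change the transcription of later genes, while Dusp1 removes the phosphates that activate MAP kinases and Arc acts at the synapse.

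The binding site of CREB, the cAMP response element, is one feature that the rule did not use. The full element TGACGTCA and its core TGACG, which every full element contains, were searched on both strands in the 250 bases before each annotated start in RefSeq (build GRCm38.p6). 7 members have such a window in the RefSeq table (Fos, Fosb, Junb, Egr2, Npas4, Nr4a1 and Dusp1), and the core was found in 7 of 7, against 19.8% of the 27025 genes of that table, where a gene counts if any of its windows holds the letters. The stretches below show the core, in capitals, at 6 of these genes. CGTCA is the core read on the other strand.
Fos, chr12:85473814-85473838, plus strand: ttccgcccagTGACGtaggaagtcc
Fosb, chr7:19310091-19310115, minus strand: gagttgcgggTGACGcaagcgcggg
Junb, chr8:84978840-84978864, minus strand: ttcctgacagTGACGcgagccgcct
Npas4, chr19:4990126-4990150, minus strand: CGTCAcgggaTGACGtcggaagtct
Nr4a1, chr15:101266796-101266820, plus strand: cctctccatgCGTCAcggagcgctt
Dusp1, chr17:26508598-26508625, minus strand: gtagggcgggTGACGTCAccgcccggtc
The full element occurred only in the Dusp1 window among these 7, against 1.77% of all genes. The CArG box, where SRF binds, was found only at Egr2 (1.62% of all genes), the TATA box TATAAA only at Fos (14.3%), and the AP-1 letters TGANTCA, with C or G in the middle, at none of the 7 (5.16%). A match is a string of letters and says nothing about whether a factor was bound in these tissues.

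Total counts were 7447742 to 12744415 in brain libraries and 6879726 to 12682087 in liver libraries. Neuronal and glial marker lists were expressed in every brain and the hepatocyte list in every liver. The hindbrain list, 13 genes of the brainstem, summed to between 4.80 and 445 CPM (counts scaled to the size of the library) among the 28 brains. The predicted gene Gm10800 took at least 0.01% of the counts in 6 of 16 livers (KD 10, 11, 14, 15 and 16, and CD 1). It took 0.0347% to 1.22% in the 26-month brains and at most 0.0017% in the 12-month brains. In whole tissue, fewer cells of a type and less RNA per cell cannot be told apart.

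Levels were first compared between genes per kilobase of exon, as CPM per kilobase. In the 28 brains Egr1 was the most abundant member at 52.4 ± 28.4 CPM per kilobase (SD, n = 28), followed by Arc at 26.5 ± 16.6, Nr4a1 at 15.3 ± 8.24 and Junb at 11.1 ± 5.32. Egr1 lay above Arc in 28 of 28 brains, Arc above Nr4a1 in 27 and Nr4a1 above Junb in 27, although the ranges of neighbours overlapped. Fos at 6.94 ± 3.01 CPM per kilobase and Dusp1 at 6.63 ± 1.94 did not separate, with Fos higher in 16 of 28 brains. Npas4 at 3.47 ± 1.64, Ier2 at 2.26 ± 0.72 and Fosb at 1.77 ± 0.77 CPM per kilobase followed, and Ier2 was above Fosb in only 18 of 28 brains. Egr2 was close to undetected, with 0 to 13 counts in a brain, and its level of 0.0746 CPM per kilobase stood below Fosb with no overlap.

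The order was different in the 16 livers. Junb at 19.6 ± 11.6 CPM per kilobase, Egr1 at 18.3 ± 13.6, Dusp1 at 13.8 ± 7.10 and Ier2 at 11.1 ± 2.04 (SD, n = 16) formed an upper group. These 4 overlapped one another, and Junb exceeded Egr1 in 9 of 16 livers. Ier2 exceeded Fos, at 2.94 ± 2.81 CPM per kilobase, in every liver. Nr4a1 followed at 2.36 ± 1.52, and Arc (0.448), Fosb (0.299), Npas4 (0.170) and Egr2 (0.0532 CPM per kilobase) were the lowest. 2 of the upper 4 lie over genes on the opposite strand: the end of Junb overlaps Prdx2 and the annotated span of Dusp1 reaches Ergic1 and the pseudogene Gm8225. Whether the counting used strand is not given in the sources used here, so part of these counts could belong to the neighbours. In liver, Prdx2 had 9743 counts beside 8238 of Junb, and Ergic1 had 21038 beside 7822 of Dusp1. In brain these were 18690 beside 7625 and 36051 beside 6490. The limit thus holds for both genes in brain as well, and in the comparison of brain with liver below.

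Brain was set against liver in the 8 and 8 libraries of 26-month CD mice, scaled together, because the same diet and age were available in both tissues. 5 members were higher in brain and 3 were higher in liver by edgeR's quasi-likelihood test at an adjusted p under 0.05, while 77% of all 20463 genes tested were called in this comparison and 78.3% had an unadjusted p under 0.05. The count of 8 among the 9 members tested is therefore read against a background of nearly the same share. 8 members were called by DESeq2 as well, and 8 by limma.

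Arc, which encodes a capsid-forming protein of the postsynapse, had 26.4 CPM in the lowest, 74.4 in the median and 140 in the highest CD brain, against 0, 0.613 and 7.01 CPM in CD livers. The groups did not overlap, and the log2 fold change, brain over liver, was 4.93 ± 0.79 (SE, adjusted p = 2.65e-05, edgeR). Npas4, a factor known from neurons, had 6.94, 11.6 and 23.3 CPM in CD brains and 0, 0.233 and 1.92 CPM in CD livers, again with no overlap. Its log2 fold change was 4.78 ± 0.55 (SE, adjusted p = 5.59e-07, edgeR). Fosb, whose splice form ΔFosB accumulates in neurons with repeated stimulation, had 5.25, 10.7 and 19.4 CPM in CD brains, against 0.227, 2.31 and 3.96 CPM in CD livers. No brain reached into the liver range, and the log2 fold change was 2.42 ± 0.47 (SE, adjusted p = 0.000169, edgeR). Nr4a1 had 26.4, 50.02 and 97.9 CPM in CD brains and 2.60, 9.83 and 22.8 CPM in CD livers, which also stood apart, with a log2 fold change of 2.36 ± 0.45 (SE).

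Ier2 went the other way. It had 2.44, 3.87 and 4.95 CPM in CD brains and 12.8, 18.1 and 24.5 CPM in CD livers, with no overlap and the smallest p of the members (log2 fold change −2.32 ± 0.18 SE, adjusted p = 7.21e-09, edgeR). Dusp1 was at 15.02, 21.1 and 30.8 CPM in CD brains and at 29.0, 53.4 and 138 CPM in CD livers. 6 of 8 brains lay below every liver, and the log2 fold change was −1.40 ± 0.28 (SE, adjusted p = 0.000253, edgeR). Junb overlapped more, at 15.7, 24.7 and 46.4 CPM in CD brains and 21.8, 54.8 and 125 CPM in CD livers, and its log2 fold change was −1.11 ± 0.37 (SE, adjusted p = 0.0125, edgeR).

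Egr1 and Fos did not separate the tissues firmly. Egr1 had 78.3, 221 and 419 CPM in CD brains and 21.6, 72.6 and 306 CPM in CD livers, where the highest liver was CD 7. Its log2 fold change of 1.12 ± 0.50 (SE) was called at an adjusted p of 0.0498 by edgeR, and the call was lost on leaving out any of 12 of the 16 libraries, with the value between 0.91 and 1.64. Fos had 11.2, 15.1 and 24.2 CPM in CD brains and 2.60, 5.33 and 31.7 CPM in CD livers and was not called (log2 fold change 0.68 ± 0.48 SE, adjusted p = 0.205, edgeR). Without the liver CD 3, the highest in Fos, it was called at 1.18 (adjusted p = 0.0176, edgeR).

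Of the genes around these members, the list of 33 other immediate early genes had 8 called higher in brain and 17 called higher in liver among 32 tested, close to the share of all genes called (77%). Zfp36, which destabilises cytokine mRNAs, was at 5.18 ± 1.26 CPM in CD brains and 96.7 ± 20.6 CPM in CD livers (SD, n = 8 each). Trib1, a pseudokinase gene, was at 17.03 ± 3.12 CPM in CD brains and 83.3 ± 16.3 CPM in CD livers. Egr4 was at 12.8 ± 6.43 CPM in CD brains and 0.0272 ± 0.0526 CPM in CD livers. Of 12 late-response genes of neurons, 10 were called higher in brain and 2 higher in liver. Scg2, Vgf and Penk, which encode a granin, a secreted growth factor-like peptide precursor and the enkephalin precursor, led them at 174 ± 42.8, 96.4 ± 27.5 and 70.6 ± 37.2 CPM in CD brains, and averaged 0.175, 0.199 and 0.225 CPM in CD livers. Of 28 upstream regulators, 16 were called higher in brain, among them the calcium-dependent kinase Camk4 (log2 fold change 5.94) and the CREB coactivator Crtc1 (2.71). 7 were called higher in liver, among them the CREB relative Atf1 (−1.66), and this list too is read against the 77% of all genes.

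**Figure D1:**
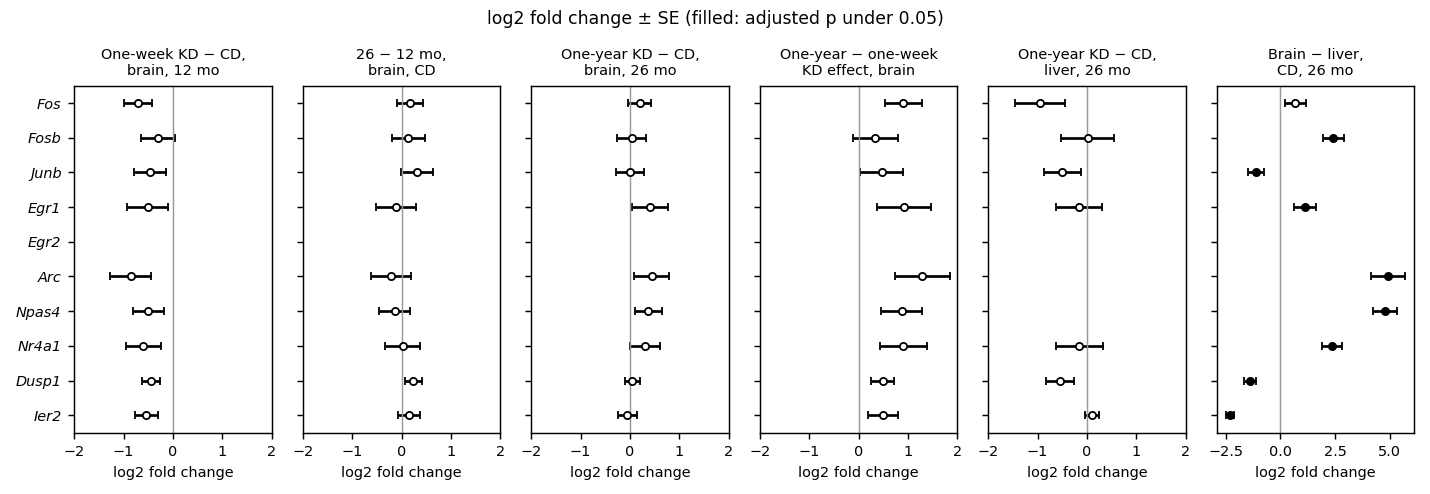
log2 fold change of each member (rows) with its SE in the 6 comparisons (columns, log2 scale), with filled points for an adjusted p under 0.05 by edgeR and members that failed the filter on low counts left blank. Filled points appear only in the comparison of brain with liver, and the points of the one-week KD lie below 0 for all 9 members tested.

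The one-week KD was compared with the CD in the 12-month brains. No member was called by edgeR (0 of 9 tested), DESeq2 or limma, and 0.00453% of the 22079 genes tested were called at all. All 9 log2 fold changes were below 0, from −0.85 to −0.30 with a median of −0.51, against −0.0012 over all genes. 4 members had an unadjusted p under 0.05, against 2.65% of all genes, and every adjusted p was 1. The members vary together from brain to brain, as shown further on, so that these 9 values are not 9 separate results.

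Fos had 6.35, 8.77 and 14.5 CPM in the lowest, the median and the highest KD brain of 12 months, against 8.59, 9.42, 14.4, 20.5 and 26.6 CPM in the 5 CD brains. The groups overlapped, but 6 of 7 KD brains lay below the CD median and 3 below every CD brain. Its log2 fold change was −0.71 ± 0.28 (SE, unadjusted p = 0.0169, edgeR). Arc had 30.8, 41.4 and 79.0 CPM in KD brains and 51.0, 57.7, 85.4, 120 and 135 CPM in CD brains. All 7 KD brains were below the CD median and 4 below every CD brain, at a log2 fold change of −0.85 ± 0.41 (SE, unadjusted p = 0.0496, edgeR).

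Dusp1 varied little in the KD brains, which lay at 13.3, 14.5 and 17.5 CPM, against 14.8, 15.1, 22.4, 23.4 and 29.2 CPM in CD brains. Its coefficient of variation was 10.9% in KD brains and 29.0% in CD brains, and all 7 KD brains were below the CD median (log2 fold change −0.45 ± 0.18 SE, unadjusted p = 0.0182, edgeR). Ier2 had 1.57, 2.06 and 3.72 CPM in KD brains and 2.63, 2.93, 3.78, 3.93 and 4.38 CPM in CD brains, with 5 of 7 KD brains below every CD brain (log2 fold change −0.54 ± 0.23 SE, unadjusted p = 0.0270, edgeR). These are low counts, 18 to 45 in a KD brain.

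The other members overlapped more. Egr1 had 68.3, 150 and 334 CPM in KD brains and 170, 184, 257, 278 and 326 CPM in CD brains (log2 fold change −0.51 ± 0.42 SE). Its highest value came from KD 2, which was also the highest KD brain in Fos, Fosb, Junb, Arc and Nr4a1. Nr4a1 had a log2 fold change of −0.60 ± 0.36, Npas4 of −0.50 ± 0.32, Junb of −0.47 ± 0.33 and Fosb of −0.30 ± 0.35 (SE). In each of these 4, 6 of 7 KD brains lay below the CD median. Egr2 failed the filter, with 0 to 8 counts in KD brains and 0 to 6 counts in CD brains.

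The size of the difference depended on single brains, in both directions. CD 13 was the highest CD brain in 8 of the 10 members, and without it the log2 fold change was −0.45 for Fos, −0.66 for Arc, −0.30 for Dusp1 and −0.45 for Ier2, with no member at an unadjusted p under 0.05. Other brains moved the values away from 0: Fos was at −0.86 without CD 4 and Arc at −1 without KD 2. Dusp1 was at −0.55 without CD 16 and Ier2 at −0.68 without KD 5. No member was called in any of the 12 fits that left out 1 brain. The hindbrain list also differed between the diets. It summed to 6.46, 149 and 445 CPM in KD brains and to 11.3, 14.2, 23.2, 124 and 136 CPM in CD brains, 11 of its 13 genes were tested, all 11 had log2 fold changes above 0 (median 1.67), 5 had an unadjusted p under 0.05, none was called and none was at 0 in a whole group. With this list as a covariate, the members ranged from −0.57 (Fos) to 0.01 (Fosb) and none had an unadjusted p under 0.05. The forebrain list, 8 genes of cortex, hippocampus and striatum, summed to 213, 370 and 514 CPM in KD brains and to 252, 297, 300.3, 380 and 419 CPM in CD brains. With it as a covariate, chosen after seeing the data, the members ranged from −0.93 (Arc) to −0.37 (Fosb), 8 of 9 had an unadjusted p under 0.05 and every adjusted p was again 1. The excitatory neuron list, 6 genes, summed to 583, 1092 and 1744 CPM in KD brains and to 1214, 1242, 1347, 1449 and 1628 CPM in CD brains, with 5 of 6 genes below 0 (median −0.40), none called and none at 0 in a whole group. The part of this list in the differences was not tested.

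**Figure D2:**
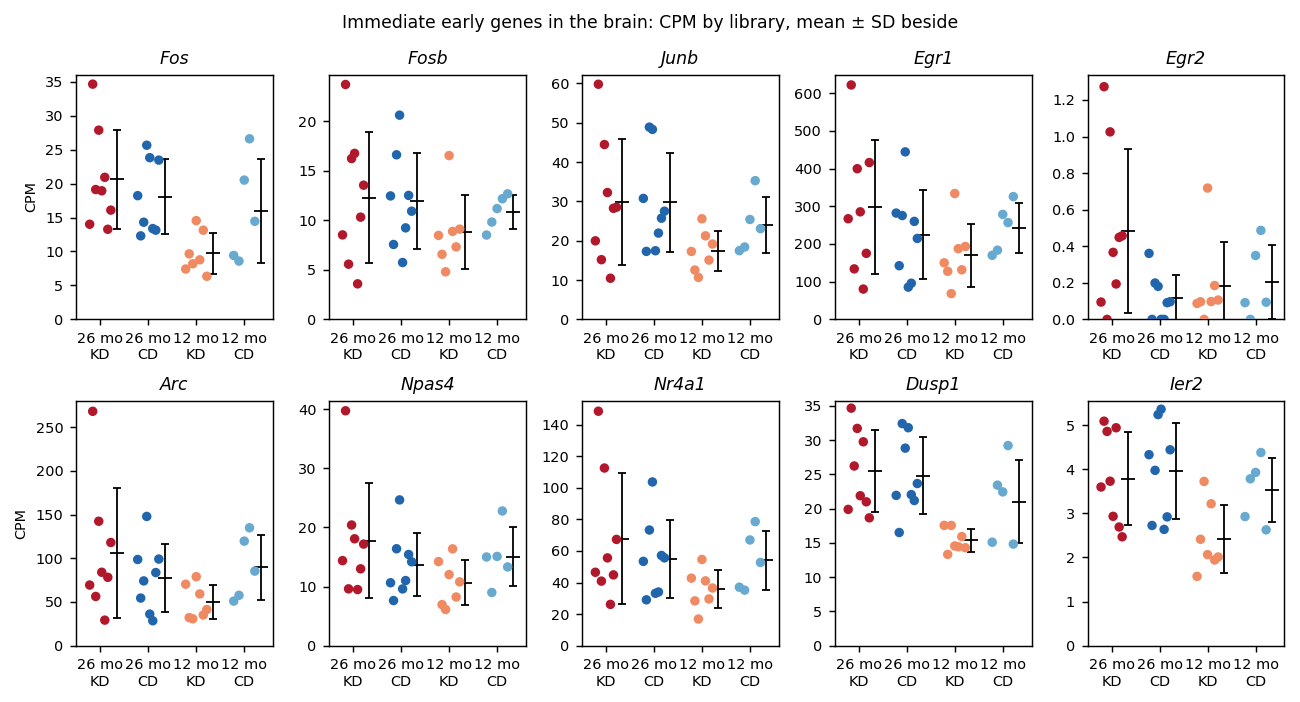
CPM of each member in every brain library (points, linear axis from 0) by age and diet, with the mean and SD of the group beside them in black. The 12-month KD brains of Dusp1 lie between 13.3 and 17.5 CPM, and the 26-month KD brain 10 is the highest of all 28 brains in 9 of the 10 panels.

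Aging was compared in CD brains, 26 months against 12 months. The ages were separate cohorts, so that age, cohort and time on the CD cannot be told apart in any difference given here as with age. The Gm10800 share also separated the ages, at 0.0551% to 1.22% of counts in 26-month and at most 0.00134% in 12-month CD brains. Its part in the differences with age was not tested. None of the 9 members tested was called by edgeR, DESeq2 or limma, and none had an unadjusted p under 0.05, against 1.26% of all genes called and 11.8% with an unadjusted p under 0.05. The log2 fold changes ran from −0.20 (Arc) to 0.31 (Junb) with a median of 0.14, and every member's groups overlapped. Fos averaged 18.03 ± 5.52 CPM in 26-month and 15.9 ± 7.64 CPM in 12-month CD brains (SD, n = 8 and 5), with a 95% interval of the log2 fold change from −0.36 to 0.70. Egr1 averaged 225 ± 118 CPM in 26-month and 243 ± 65.5 CPM in 12-month CD brains, with an interval from −0.90 to 0.68. Dusp1, the member with the narrowest interval (−0.11 to 0.58), averaged 24.8 ± 5.63 CPM in 26-month and 21.0 ± 6.09 CPM in 12-month CD brains.

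1 of the 33 other immediate early genes was called with age. Atf3, a stress-induced factor of the ATF family, averaged 1.38 ± 0.48 CPM in 26-month and 0.439 ± 0.225 CPM in 12-month CD brains (log2 fold change 1.59 ± 0.36 SE, adjusted p = 0.0204, edgeR). These levels are low and the groups overlapped, at 0.696 to 2.07 CPM in 26-month and 0.205 to 0.811 CPM in 12-month CD brains. The call was lost on leaving out 12-month CD 1, 4, 7 or 16 (adjusted p from 0.0630 to 0.0791) and with the hindbrain covariate (1.46, adjusted p = 0.0790). Zfp36 at 0.53 ± 0.15 and Maff at 1.10 ± 0.31 (SE) came next and were not called (adjusted p = 0.0722 and 0.0834, edgeR), although DESeq2 called both and limma called Maff. None of the late-response genes, upstream regulators, heat shock genes or clock genes was called with age, with unadjusted p under 0.05 in 0 of 12, 1 of 28, 1 of 12 and 1 of 16. Of 15 glucocorticoid-responsive genes, which share stimuli with several members, 2 were called: the metallothionein gene Mt1 (log2 fold change 0.52, adjusted p = 0.00243, edgeR) and the lipid droplet gene Plin4 (1.40, adjusted p = 0.0452, edgeR). The call of Plin4 was lost by limma (0.87, adjusted p = 0.158) and on leaving out any of 8 of the 13 libraries (adjusted p from 0.0136 to 0.130 over the 13 fits by edgeR). All 15 were above 0 with age, and 13 had an unadjusted p under 0.05, against 11.8% of all genes.

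The one-year KD was compared with the CD in 26-month brains, all collected on the CD. No member was called by edgeR, DESeq2 or limma, none had an unadjusted p under 0.05, and 0% of the 22079 genes were called, with 4.52% at an unadjusted p under 0.05. The log2 fold changes ran from −0.05 (Ier2) to 0.44 (Arc), with a median of 0.20 and 8 of 9 above 0. Arc had 29.3, 81.2 and 268 CPM in KD brains and 28.5, 78.9 and 148 CPM in CD brains. The medians were close, and the highest KD brain, KD 10, lay far above the rest. Egr1 had 80.4, 276 and 622 CPM in KD brains and 85.5, 237 and 444 CPM in CD brains (log2 fold change 0.40 ± 0.36 SE, 95% interval −0.30 to 1.10). Fos had 13.3, 19.0 and 34.6 CPM in KD brains and 12.3, 16.3 and 25.7 CPM in CD brains (0.20 ± 0.24 SE, interval −0.27 to 0.66, and 0.05 without KD 10).

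KD 10 was the highest 26-month KD brain in every member, and without it the log2 fold changes were 0.08 for Arc, 0.16 for Egr1, 0.09 for Npas4 and 0.03 for Nr4a1. CD 4 was the highest 26-month CD brain in these members and in Fos. Without CD 4 the log2 fold changes were 0.64 for Arc, 0.62 for Egr1, 0.55 for Npas4, 0.50 for Nr4a1 and 0.29 for Fos. No member was called in any of the 16 fits that left out 1 brain. Junb, at 29.9 ± 16.1 CPM in KD and 29.7 ± 12.5 CPM in CD brains (SD, n = 8 each), and Fosb, at 12.3 ± 6.61 CPM in KD and 11.9 ± 4.83 CPM in CD brains, had nearly equal means. Egr2 failed the filter, with 40 counts over the 8 KD brains and 10 over the 8 CD brains. 5 KD brains lay above every CD brain, the highest again being KD 10 with 13 counts. In the fit without a filter its log2 fold change was 1.93 (unadjusted p = 0.0103, adjusted p = 1, edgeR).

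The 15 glucocorticoid-responsive genes were all below 0 after the one-year KD (median −0.43), 11 with an unadjusted p under 0.05 and none called. This comparison and that of age share the 26-month CD brains. The list summed to between 441 and 528 CPM in KD brains, against 1044, 1007 and 878 CPM in CD 3, 6 and 7 and between 471 and 556 CPM in the remaining 5 CD brains.

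The 2 diet effects in the brain were set against each other as a contrast of the same fit, one-year minus one-week. All 9 members were above 0, from 0.34 (Fosb) to 1.29 (Arc) with a median of 0.87, against 0.0033 over all genes. Arc (unadjusted p = 0.0255), Fos (0.0197), Dusp1 (0.0458) and Npas4 (0.0476) were under 0.05, where 4.52% of all genes were, and no gene of the table was called (0%), with an adjusted p of 0.9999 for each member by edgeR. No member was called by DESeq2 or limma either. Without the 12-month CD 13 no member had an unadjusted p under 0.05, and without the 26-month KD 10 only Fos did (0.76, unadjusted p = 0.0401, edgeR). Leaving out other brains raised the values, to 1.06 for Fos without the 12-month CD 4 and to 1.49 for Arc without the 26-month CD 4. No member was called in any of the 28 fits that left out 1 brain. Both ages of mice were collected as separate cohorts, the first on the KD and the second in a week on the CD, so that duration, age, the diet of that week and cohort cannot be told apart in this contrast.

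Brains of one group differed widely. Over the 8 KD brains of 26 months, Arc differed 9.17-fold between the highest and the lowest, Egr1 7.73-fold, Fosb 6.61-fold and Junb 5.72-fold, but Fos only 2.61-fold, Ier2 2.06-fold and Dusp1 1.86-fold. Fos was also below Egr1 in the 26-month CD brains (2.09-fold and 5.19-fold) and in the 12-month KD brains (2.29-fold and 4.88-fold). The 5 CD brains of 12 months went the other way. There Fos differed 3.10-fold, Arc 2.64-fold, Junb 2.02-fold, Egr1 1.92-fold and Fosb 1.49-fold. Over the 36 pairs of the 9 members, with group means removed, Pearson's r across the 28 brains ran from −0.18 to 0.95 with a median of 0.53, and 34 pairs were above 0. These r values are descriptions, and the members of a pair share the library, its depth and its scaling.

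The pairs separated the members into blocks. Fosb, Junb, Egr1, Arc, Npas4 and Nr4a1 varied together, with r from 0.77 (Egr1 and Npas4) to 0.95 (Fosb and Junb) in all 15 of their pairs. Dusp1 and Ier2 formed a pair of their own at 0.65, and both were less close to the first block, Ier2 with r from −0.18 (Fosb) to 0.07 (Arc) and Dusp1 with r from 0.02 (Egr1) to 0.35 (Nr4a1). Fos lay between the 2 blocks.

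**Figure D3:**
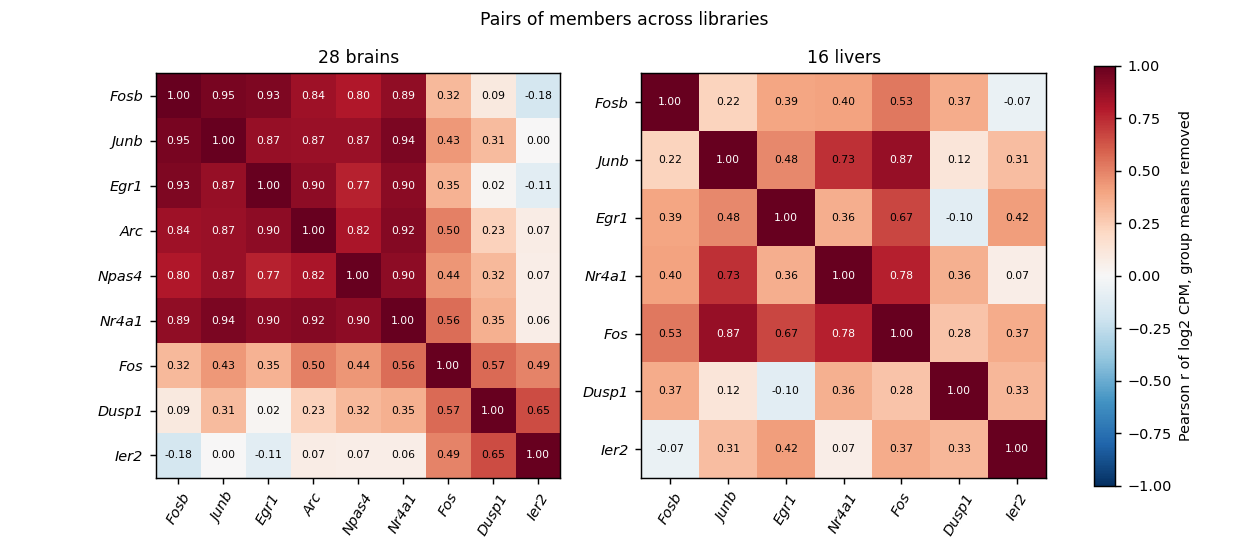
Pearson's r of log2 CPM with group means removed for each pair of members that passed the filter, across 28 brains (left) and 16 livers (right), on a colour scale from −1 to 1. In the brains, the 6 members from Fosb to Nr4a1 form a block of 0.77 and above, while Dusp1 and Ier2 are at 0.65 with each other; in the livers the highest value is 0.87, for Fos and Junb.

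For Fos the relations were tested by permuting libraries within groups, as a family of 8. Fos followed Dusp1 with r = 0.57 (Spearman's rho 0.56, permutation p = 0.00695 and 0.00734, adjusted p = 0.0209 and 0.0215), Nr4a1 with r = 0.56 (rho 0.52), Arc with r = 0.50 (rho 0.50) and Ier2 with r = 0.49 (rho 0.52), each with adjusted p of 0.0209 for r and 0.0215 for rho. Junb (r = 0.43, rho 0.39) and Npas4 (r = 0.44, rho 0.35) passed for r alone (adjusted permutation p = 0.0330), with adjusted p for rho of 0.0657 and 0.0787. Fosb (r = 0.32, rho 0.37) and Egr1 (r = 0.35, rho 0.38) did not pass, with adjusted permutation p of 0.0897 and 0.0779 for r. Without the 2 brains farthest from the median of Fos, r was 0.51 for Dusp1, 0.50 for Nr4a1, 0.41 for Arc and 0.43 for Ier2. Within groups of at least 6 brains, Fos with Dusp1 was 0.91 in 26-month KD, 0.56 in 26-month CD and −0.17 in 12-month KD brains, and Fos with Ier2 was 0.63, 0.92 and −0.09. These 2 relations were thus not seen among the 12-month KD brains. In the same order of groups, Fos with Nr4a1 was 0.68, 0.40 and 0.23, and Fos with Arc was 0.54, 0.40 and 0.17. In the 12-month KD brains Fos was at −0.11 with Npas4, 0.24 with Junb, 0.34 with Egr1 and 0.42 with Fosb.

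2 brains, picked after their values were seen, show the blocks. The 26-month KD brain 14 was the lowest of its group in Egr1 (80.4 CPM), Fosb (3.58 CPM), Junb (10.5 CPM), Arc (29.3 CPM), Npas4 (9.49 CPM) and Nr4a1 (26.2 CPM), yet above its group's median in Fos (20.9 CPM) and Dusp1 (29.7 CPM). In the 26-month CD brain 5, Egr1 (85.5 CPM), Fosb (5.74 CPM) and Arc (36.2 CPM) were the lowest or second lowest of the 8 CD brains, while Ier2 (5.36 CPM) was the highest and Fos (23.8 CPM) and Dusp1 (31.8 CPM) the second highest. Both had the lowest excitatory neuron sums of their groups, 516 CPM in KD 14 and 495 CPM in CD 5, and the highest Gm10800 shares, 0.991% of counts in KD 14 and 1.22% in CD 5.

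The members were then set beside summed levels of gene lists, as 27 relations tested by permutation within groups. The forebrain list followed Fosb (r = 0.75, rho 0.74), Egr1 (r = 0.73, rho 0.74), Junb (r = 0.65, rho 0.63), Nr4a1 (r = 0.63, rho 0.60), Npas4 (r = 0.62, rho 0.62) and Arc (r = 0.54, rho 0.50), with adjusted permutation p from 0.000135 to 0.0105 for r and from 0.000135 to 0.0226 for rho. The excitatory neuron list, 6 genes with Slc17a7 and Nrgn among them, followed the same 6 members with r from 0.68 (Npas4, rho 0.74) to 0.88 (Egr1, rho 0.88) and adjusted permutation p of at most 0.00111. Fos, Dusp1 and Ier2 did not follow either list: r was 0.04, −0.05 and −0.05 with the forebrain list and 0.02, −0.09 and −0.30 with the excitatory neuron list (adjusted permutation p of at least 0.269).

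Without the 2 brains farthest from the median of the list, the 6 relations with the forebrain list were 0.46 (Arc) to 0.75 (Fosb) and those with the excitatory neuron list 0.64 (Npas4) to 0.83 (Egr1). Within groups, Egr1 with the forebrain list was 0.90 in 26-month KD, 0.78 in 26-month CD and 0.69 in 12-month KD brains. Arc was the only member that followed the heat shock list (r = 0.53, rho 0.57, adjusted permutation p = 0.0199 and 0.00835). Among the 16 brains of 26 months the Gm10800 share was related to none of the 9 members at an adjusted permutation p under 0.05. The highest were Dusp1 (r = 0.64, rho 0.59, adjusted permutation p = 0.0882 and 0.158), Fos (r = 0.52, rho 0.55) and Ier2 (r = 0.43, rho 0.49). The remaining members lay between −0.12 (Egr1) and 0.13 (Npas4). Dusp1, Fos and Ier2 were at 0.82, 0.61 and 0.73 within CD brains and at 0.45, 0.44 and 0.10 within KD brains.

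**Figure D4:**
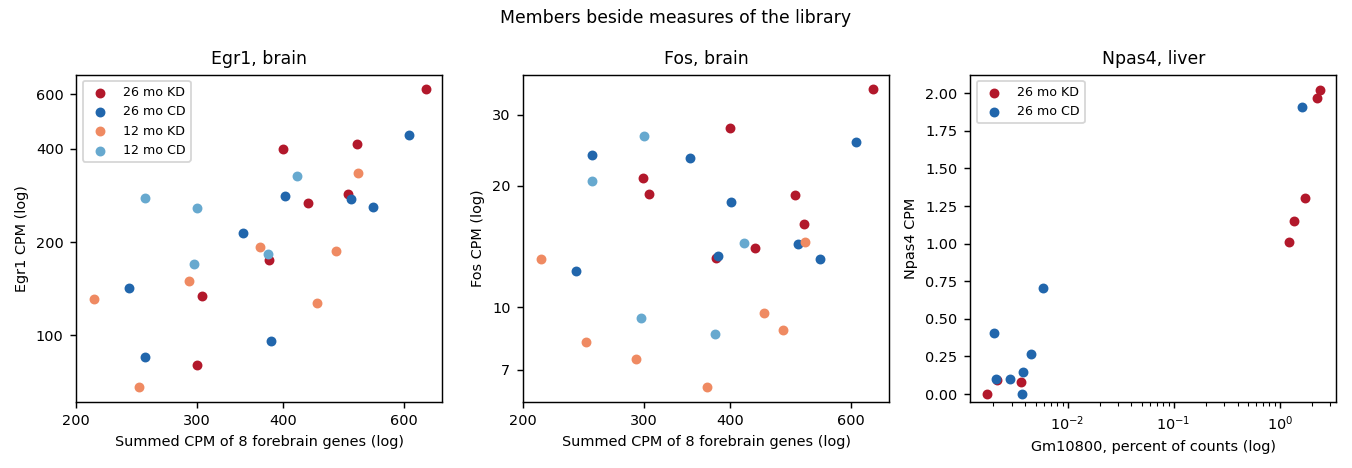
CPM of Egr1 (left) and Fos (middle) against the summed CPM of the 8 forebrain genes in 28 brains, both axes logarithmic and colours giving age and diet, and CPM of Npas4 (linear axis) against the Gm10800 share of counts (log axis) in 16 livers (right). Egr1 follows the forebrain sum (r = 0.73) while Fos does not (r = 0.04). Both r were computed with group means removed, while the points keep the group differences. The 6 livers with at least 0.01% Gm10800 have 1.01 to 2.02 CPM of Npas4.

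Genes with the pattern most like that of the members in the brain were ranked by Pearson's r with the mean z-value of the 9 members, over 28 brains with group means removed. Trib1 (r = 0.85), Rbm24 and Klf10 (both 0.84) came first, followed by Dusp6, Bcor, Arid3b, Mbd2, Atp8b1, Midn and Pvr, the last at 0.80. 3 of these 10, Trib1, Klf10 and the ERK phosphatase gene Dusp6, are on the list of other immediate early genes. Trib1 followed Fos (0.72) more than Egr1 (0.62), while Klf10 followed Egr1 (0.94) more than Fos (0.35).

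In the liver, the one-year KD was compared with the CD in 8 and 8 mice. None of the 7 members tested was called by edgeR, DESeq2 or limma, no gene of 18002 was called by edgeR (0%) and 177 were by DESeq2, and no member had an unadjusted p under 0.05 by edgeR, against 15.5% of all genes. The log2 fold changes ran from −0.96 (Fos) to 0.10 (Ier2) with a median of −0.17, against 0.0432 over all genes. Fos had 1.58, 4.82 and 7.50 CPM in the lowest, the median and the highest KD liver, against 2.39, 4.71 and 27.4 CPM in CD livers. The medians were alike and the groups differed in spread: 3 CD livers, CD 7, 6 and 3, lay above every KD liver with 13.2, 14.9 and 27.4 CPM. The log2 fold change of −0.96 ± 0.51 (SE, unadjusted p = 0.0768, adjusted p = 0.365, edgeR) was −0.47 without CD 3 (unadjusted p = 0.299) and −0.21 by limma with sample quality weights (unadjusted p = 0.636). Other settings moved it away from 0, to −1.15 without CD 1 and to −1.03 by DESeq2 (unadjusted p = 0.0446, adjusted p = 0.227).

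Dusp1 had 23.7, 38.4 and 53.0 CPM in KD livers and 26.6, 47.1 and 119 CPM in CD livers, with CD 3 again the highest (log2 fold change −0.55 ± 0.28 SE, adjusted p = 0.352, edgeR, and −0.28 without CD 3). Without CD 7 Dusp1 was at −0.66, and by DESeq2 at −0.61 (unadjusted p = 0.0374, adjusted p = 0.209). Junb had 18.5, 30.4 and 74.3 CPM in KD livers and 21.6, 48.4 and 108 CPM in CD livers, where 4 livers (CD 5, 7, 6 and 3) had at least 66.4 CPM and the remaining 4 at most 30.4 CPM. Among the livers with Gm10800 under 0.01% of counts, 3 KD and 7 CD, its log2 fold change was −0.02, against −0.50 ± 0.38 (SE) in all 16 and −0.27 without CD 3. Without KD 13 it was −0.72. Egr1 had 34.5, 78.0 and 124 CPM in KD livers, against a wider 18.7, 66.9 and 280 CPM in CD livers. Nr4a1 (−0.15 ± 0.47), Fosb (0.01 ± 0.53) and Ier2 (0.10 ± 0.14 SE) had log2 fold changes near 0, and Ier2 was the most even member, at 11.7 to 22.9 CPM in KD livers and 11.4 to 21.2 CPM in CD livers.

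**Figure D5:**
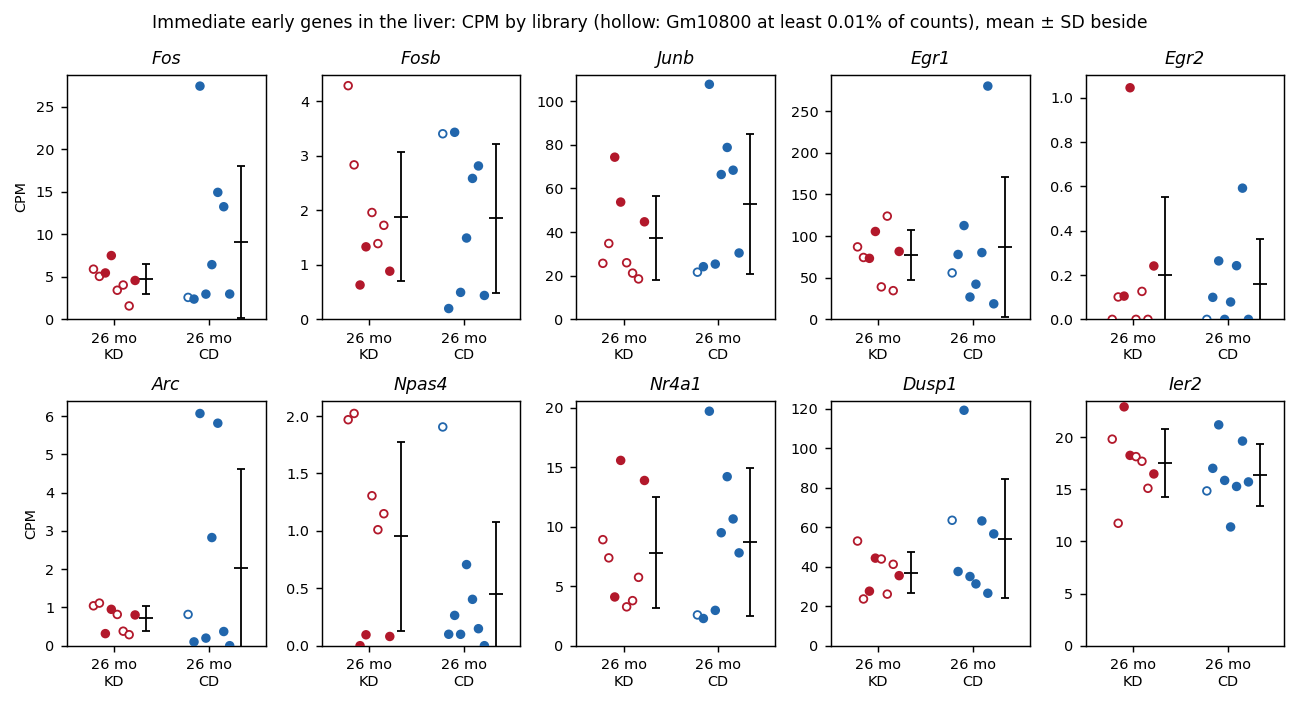
CPM of each member in every liver library (points, linear axis from 0) on the KD and the CD at 26 months, with the mean and SD of the group in black and hollow points for livers with Gm10800 at 0.01% of counts or more. Fos in all 8 KD livers (1.58 to 7.50 CPM) lies below 3 CD livers (13.2 to 27.4 CPM), and Npas4 is above 1 CPM in hollow points alone.

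The 4 CD livers with the highest Fos and Junb (CD 3, 5, 6 and 7) also had the most RNA of immune cell markers. The neutrophil list, 6 genes, summed to between 13.7 and 64.0 CPM in KD livers, to between 144 and 1237 CPM in these 4 CD livers and to between 12.5 and 18.3 CPM in the remaining 4 CD livers. The Kupffer cell list, 7 genes, lay between 179 and 1989 CPM in KD livers, between 3843 and 4210 CPM in these 4 and between 168.5 and 923 CPM in the remaining 4. In the diet comparison 5 neutrophil genes were tested and all 5 were below 0 (median −4.29), as were 7 of 7 Kupffer cell genes (median −1.999), with 5 and 6 of them at an unadjusted p under 0.05, none called and no marker at 0 in a whole group. Their part in the member values was not tested.

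Arc and Npas4 failed the filter in liver but were not spread evenly. Arc had 2 to 11 counts in KD livers, against 92, 72 and 36 counts in CD 3, 6 and 5 and 0 to 6 counts in the remaining 5 CD livers. Npas4 had 8 to 20 counts (1.01 to 2.02 CPM) in the 6 livers with Gm10800 of at least 0.01%, and 0 to 9 counts (0 to 0.71 CPM) in the 10 others. 5 of those 6 livers were KD livers, so that the Gm10800 share and the diet overlap for this gene and for every other member in liver. Median CPM in those 6 and in the 10 others was 3.73 and 5.95 for Fos, 23.7 and 60.1 for Junb and 4.77 and 10.1 for Nr4a1. It was 65.1 and 79.1 for Egr1, 16.4 and 16.7 for Ier2, 42.6 and 36.5 for Dusp1 and 2.40 and 1.11 for Fosb. Egr2 had 0 to 11 counts in KD livers and 0 to 8 counts in CD livers.

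Across the 16 livers, Fos followed Junb (r = 0.87, rho 0.89, adjusted permutation p = 0.00042 and 0.00024), Nr4a1 (r = 0.78, rho 0.81, adjusted permutation p = 0.00606 and 0.00396) and Egr1 (r = 0.67, rho 0.69, adjusted permutation p = 0.0333 and 0.0226) in a family of 6 relations. Without the 2 livers farthest from the median of Fos these were 0.80, 0.64 and 0.70. Within KD livers r was 0.68, 0.45 and 0.77 for the 3 genes, and within CD livers 0.96, 0.90 and 0.64. Fosb (r = 0.53, rho 0.50), Ier2 (r = 0.37, rho 0.44) and Dusp1 (r = 0.28, rho 0.24) did not pass (adjusted permutation p = 0.125, 0.195 and 0.384 for r), and Dusp1 turned to −0.42 without the 2 farthest livers. With CPM scaled by total counts alone, r with Fos was 0.77 for Ier2, 0.61 for Fosb and 0.47 for Dusp1, and no permutation was run on these. Over the 21 pairs of the 7 members tested in liver the median r was 0.37.

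Of the 33 other immediate early genes, 31 were tested in the diet comparison in liver and none was called by edgeR, with 2 at an unadjusted p under 0.05. Ier3 (2.63 ± 1.40 CPM in KD and 16.1 ± 24.2 CPM in CD livers), Klf4 (3.87 ± 1.34 and 10.3 ± 9.73 CPM) and Klf10 (40.3 ± 12.0 and 59.1 ± 29.9 CPM; SD, n = 8 each) had the smallest p, with adjusted p of 0.291, 0.295 and 0.331 (edgeR). After one week of KD in brain, Btg2 (−0.35 ± 0.16), Tiparp (−0.19 ± 0.09) and Klf4 (0.36 ± 0.18 SE) had the smallest p of this list, with adjusted p of 1 (edgeR). 23 of its 32 tested genes were below 0, with a median of −0.18. After the one-year KD the brain list had 14 of 32 below 0 and a median of 0.09, with Maff (−0.74 ± 0.26), Zfp36 (−0.28 ± 0.13) and Klf6 (0.15 ± 0.09 SE) first and adjusted p of 0.989 (edgeR).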

How the data were processed

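The authors trimmed reads with Trimmomatic, aligned them to GRCm38 with STAR and counted genes with RSEM; versions and strand settings are not given in the sources used here. As deposited by the authors, the table holds unnormalized read counts, 1 whole number for each gene and library. 54409 of 54446 identifiers received a symbol from GENCODE vM21. Libraries of one tissue were treated as separate mice. Whether a brain and a liver of one number come from one mouse is not given in the sources used here, and no batch is stated.

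Counts were analysed with edgeR 4.0.16 in R 4.3.3: filterByExpr, TMM scaling, the quasi-likelihood test and Benjamini-Hochberg adjustment over all genes tested, with a call at an adjusted p under 0.05. The 28 brains formed 1 fit with 4 groups, the 16 livers a separate one, and the CD brains and livers of 26 months another. edgeR was checked on simulated data. CPM are scaled by TMM within each fit, so that values of the tissue comparison differ slightly from those of the other fits. Correlations used log2 CPM (prior count 2) with group means removed and 100000 permutations within groups, two-sided, whose smallest p is 1e-05. Dixon's ratio used log2(CPM + 0.5).

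DESeq2 1.42.0, limma 3.58.1 with sample quality weights, other scalings and filters, covariates, the replicate block and leaving out each library were alternatives. The fits with the forebrain covariate, with 6 libraries of shared numbers and for genes of the lists were added after seeing the data.

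The members and all gene lists were chosen with earlier results of these data known. Named are the 10 members, at most 3 other immediate early genes a comparison with the smallest p, at most 3 called genes of each further list, and the 10 (brain) and 5 (liver) genes most like the members. Single libraries named for their values were picked after these were seen. Promoter stretches are from RefSeq, and no window is shown for Egr1, Arc or Ier2.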

Additional observations from a re-analysis of the deposited data

Results flagged for a closer look

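Of 60 combinations of a member and a group, 2 held a library set apart from the others of its group by Dixon's ratio, where chance gives about 1 in 20. Both concern Egr2 at low counts. It had 0.718 CPM (8 counts) in the 12-month KD brain 2, against 0 to 2 counts in the other 6 KD brains. It had 1.04 CPM (11 counts) in the KD liver 12, against 0 to 3 counts in the other 7 KD livers. Egr2 did not pass the filter on low counts in either tissue.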

How the results depend on the processing

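No alternative changed the number of members called in the diet and age comparisons, which stayed at 0. In the brain against the liver 8 members were called, 7 to 8 on leaving out single libraries, and 5 when only genes with at least 10 counts in every library were tested, which removes Arc, Npas4 and Fosb. Egr1 lost its call there without a filter (1.08). Of 441 values of members under other settings, 409 kept their direction and side of the threshold, 31 changed sign and 1 lost its call, and none that changed sign was called. The cause of these changes was not tested. With the hindbrain covariate, Fosb after the one-week KD was 0.01, and with age Egr1 was 0.23, Arc 0.16 and Npas4 0.20. After the one-year KD Fosb was −0.13, Junb −0.20 and Dusp1 −0.01, and in the difference of the diet effects Fosb was −0.14 and Junb −0.10. With the forebrain covariate, added after seeing the data, Fosb was −0.03 and Nr4a1 −0.16 with age, and Fosb −0.18 and Junb −0.17 after the one-year KD. Nr4a1 with age was −0.10 by limma and −0.03 without a filter, and Junb after the one-year KD was −0.01 on total counts alone. In liver, Fosb was −0.06 by DESeq2 and with RLE factors, −0.11 on total counts, −0.23 without a filter and −0.82 in livers with little Gm10800, where Nr4a1 was 0.19. By limma Nr4a1 was 0.11, Egr1 0.48 and Fosb 0.81, and without a filter Ier2 was −0.05.

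Leaving out 1 library at a time gave 877 values, of which 825 were unchanged in direction and call and 39 changed sign. With age, Fosb ranged from −0.02 to 0.24, Egr1 from −0.33 to 0.02, Npas4 from −0.31 to 0.06 and Nr4a1 from −0.18 to 0.19. After the one-year KD in brain, Fosb ranged from −0.17 to 0.19, Junb from −0.22 to 0.14, Dusp1 from −0.03 to 0.11 and Ier2 from −0.13 to 0.02. In liver, Fosb ranged from −0.28 to 0.20, Egr1 from −0.33 to 0.39 and Nr4a1 from −0.37 to 0.13. Without the 2 farthest libraries, Fos with Dusp1 across livers was −0.42, and brain with liver was −0.19 for Egr1 and −0.09 for Egr2.

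The aging groups share the numbers 1, 4 and 7 in their titles, but libraries of the same number deviated together with r of −0.23 to 0.19 and none was closest to its own number. For brains and livers of one number this r was −0.05 to 0.15 on the KD, where 1 of 7 was closest to its own number, and −0.04 to 0.13 on the CD, where 3 of 8 were. With the number as a replicate block, which leaves 6 libraries, Egr1 was 0.63, Arc 0.59 and Npas4 0.32 with age, and the same 6 libraries without the block gave 0.64, 0.53 and 0.37. In these libraries 13 genes were called with the block and 18 without, against 278 among all. Mt1 with age was 0.25 in both fits and was not called (adjusted p = 0.449 with the block and 0.427 without, edgeR). The block changed no call of a member in the brain against the liver. Egr2 and, in liver, Arc and Npas4 were too low for the tests.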

Other observations

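In the 16 livers the members were set beside the glucocorticoid-responsive list and the heat shock list, as 14 relations with permutation within groups. Ier2 followed the glucocorticoid list (r = 0.85, rho 0.84, adjusted permutation p = 0.00098 and 0.00322), with r of 0.91 in KD and 0.77 in CD livers and 0.71 without the 2 livers farthest from the median of the list. No other member followed it, the next by r being Junb (r = 0.30, rho 0.33). The heat shock list ran against Fos (r = −0.84, rho −0.81), Junb (r = −0.77, rho −0.78) and Nr4a1 (r = −0.70, rho −0.71), with adjusted permutation p of 0.00294, 0.00649 and 0.0292 for r and of 0.00756, 0.00947 and 0.0272 for rho. Without the 2 farthest livers these were −0.77, −0.70 and −0.52. Within KD livers they were −0.55, −0.59 and −0.38, and within CD livers −0.91, −0.87 and −0.82. The CD livers 3 and 6, with the lowest heat shock sums (1269 and 1330 CPM), also had the highest neutrophil sums (1026 and 1237 CPM).

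The genes most like the members in liver, by r with the mean z-value of the 7 members over 16 livers, were Slc16a3 (0.93), Nhlrc3 (0.92), Odf2, Stk24 and Kctd13 (each 0.91). None of them is on the list of other immediate early genes, unlike 3 of the 10 in the brain.

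Brains and livers of 26 months that carry the same diet and number, 15 pairs, were compared for each of the 10 members, although no source states that a number marks a single mouse. No member passed (smallest adjusted permutation p = 0.645). r was −0.24 (rho −0.11) for Fos, −0.36 (rho −0.30) for Arc and −0.48 (rho −0.38) for Ier2, the lowest of the 10, with Ier2 at −0.49 within the KD and −0.47 within the CD. Without the 2 farthest pairs Npas4, at −0.18 over all pairs (rho −0.32), was −0.77 and Fos −0.48, and no permutation was run on these 2 values. Npas4 had failed the filter in liver, with 0 to 20 counts, as had Arc and Egr2.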
